A study of Mus musculus with 2 samples.

Results

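Peaks lying between the facing ends of neighbouring protein-coding genes were taken from a single-nucleus ATAC-seq peak list of embryonic mouse striatum. In this assay a transposase tags accessible DNA in isolated nuclei, and a peak is a region called accessible. The nuclei came from striatum of wild-type embryos at E14.5 on a C57BL/6J and CD1 background, in 2 libraries of 1 group. Neither the number nor the sex of the embryos is given in the labels, nor is it said whether nuclei were pooled across them. The deposited result is 1 list of 87174 peak positions for both libraries, without counts or scores, so read depth and agreement between libraries are unknown here. All 15 listed striatal markers, among them Dlx1, Foxp1 and Gad1, had a peak within 1000 bp of a gene end, against 4 of 14 liver genes. All 16 cortical excitatory lineage genes and all 15 interneuron genes had one too, as did 67.3% of all protein-coding genes. The check thus sets the list apart from liver but does not single out striatum.

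A close pair was defined as 2 neighbouring protein-coding gene spans, in the RefSeq annotation of GRCm38.p6, with a gap of 1 to 1000 bp between them and no other protein-coding gene over the gap. There were 2000 such gaps, and 9 further pairs abutted with no base between them. A peak overlapping a gap by at least 1 bp was called a shared peak. By this rule 1201 gaps, 60.0% of the 2000, held a peak. The shared peaks numbered 1193, or 1.37% of the list, because 8 peaks reached over 2 gaps each. No gap held more than 1 peak. The name fits most of them: 985 of the 1193 peaks covered both facing gene ends, whereas at 8 gaps the peak lay inside the gap and reached neither end.

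Where 2 genes are transcribed away from each other from closely spaced starts, the DNA between them can act as a bidirectional promoter. Such promoters are usually rich in CpG dinucleotides, often lack a TATA box, and are known mainly from widely expressed genes of DNA repair, mitochondria and RNA processing. Genes that face each other with their 3' ends share no promoter, and in a head-to-tail arrangement the gap separates the end of the upstream gene from the promoter of the downstream one. Transcription direction was therefore read from the RefSeq promoter table, which gave a strand for 17491 of 21770 protein-coding genes. It sorted the gaps into 563 head-to-head, 444 head-to-tail and 424 tail-to-tail pairs, and 569 pairs remained without a known orientation.

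The DNA of 8 head-to-head gaps under a shared peak is printed as examples. Each is the whole stretch between both gene spans in GRCm38.p6, read 5' to 3' on the strand of the gene named after "towards". The first 4 come from pairs listed as known bidirectional promoters, the next 2 are those with a motif match among the 4 shortest gaps of at least 20 bp, and the last 2 hold an NRF1 or an ETS match. Those last 4 were picked after the matches had been seen. Capitals mark matches, on either strand, to the NF-Y (CCAAT), SP/KLF (GGGCGG), ETS (CCGGAAG) and NRF1 (GCGCNTGCGC, where N is any base) motifs, and the Sirt3-Psmd13 gap holds none.
Ranbp1-Trmt2a, chr16:18248695-18248846, minus strand, towards Ranbp1: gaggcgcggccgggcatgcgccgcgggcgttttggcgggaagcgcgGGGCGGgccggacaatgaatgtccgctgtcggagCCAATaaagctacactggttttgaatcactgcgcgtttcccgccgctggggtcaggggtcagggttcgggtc
Psmb9-Tap1, chr17:34187331-34187555, plus strand, towards Tap1: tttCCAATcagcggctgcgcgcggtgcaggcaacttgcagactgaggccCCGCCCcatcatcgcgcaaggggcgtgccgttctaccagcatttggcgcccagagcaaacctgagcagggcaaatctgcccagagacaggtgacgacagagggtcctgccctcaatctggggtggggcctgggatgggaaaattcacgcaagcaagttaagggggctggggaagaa
Brca1-Nbr1, chr11:101551956-101552106, plus strand, towards Nbr1: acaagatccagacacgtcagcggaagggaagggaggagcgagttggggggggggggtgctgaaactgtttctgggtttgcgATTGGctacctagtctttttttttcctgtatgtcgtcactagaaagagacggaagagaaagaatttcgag
Sirt3-Psmd13, chr7:140882310-140882393, plus strand, towards Psmd13: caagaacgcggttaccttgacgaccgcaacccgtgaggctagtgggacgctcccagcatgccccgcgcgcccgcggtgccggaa
Ndufs6-Mrpl36, chr13:73328483-73328502, minus strand, towards Ndufs6: ctgtGCGCCTGCGCcggcac
Ap3m1-Adk, chr14:21052554-21052573, plus strand, towards Adk: ggGGGCGGtgacgagctgag
Clcn2-Polr2h, chr16:20717747-20717825, plus strand, towards Polr2h: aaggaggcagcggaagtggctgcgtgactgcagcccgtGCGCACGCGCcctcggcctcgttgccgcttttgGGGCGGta
Uqcrh-Lrrc41, chr4:116075071-116075268, plus strand, towards Lrrc41: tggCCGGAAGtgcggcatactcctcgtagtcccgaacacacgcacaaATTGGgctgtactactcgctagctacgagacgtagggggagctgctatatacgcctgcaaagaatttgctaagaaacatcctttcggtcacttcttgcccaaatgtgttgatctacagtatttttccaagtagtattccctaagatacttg

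Since 4 of these were picked for their matches, they do not stand for all gaps. Over 340 such gaps of up to 250 bp, 40.3% held the SP/KLF motif, 27.4% NF-Y, 10.6% ETS and 8.82% NRF1. The printed gaps ran from 20 bp to 225 bp, and each lay under 1 peak far wider than itself. The Ndufs6-Mrpl36 gap, between genes for a complex I subunit and a mitochondrial ribosomal protein, consists of 20 bases, of which 10 match the NRF1 motif, and its peak was 1203 bp wide. The Ranbp1-Trmt2a gap, between genes for a Ran-binding protein and a tRNA methyltransferase, held 19 CpG dinucleotides in 152 bases, and the Brca1-Nbr1 gap held 7 in 151. G and C made up 46.97% of the Uqcrh-Lrrc41 gap and 80% of the Ndufs6-Mrpl36 gap.

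Orientation separated the close pairs far more than gap length did. A peak overlapped 539 of 563 head-to-head gaps, or 95.7% (exact binomial 95% interval 93.7 to 97.3), 298 of 444 head-to-tail gaps, or 67.1% (62.5 to 71.5), and 45 of 424 tail-to-tail gaps, or 10.6% (7.85 to 13.9). The share over all 2000 gaps was 60.0%, and pairs without a known orientation stood at 56.1% (319 of 569). These intervals cover counting only. The pairs belong to 1 peak list and are not replicates, so no test across pairs was made.

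Within the head-to-head pairs the share of gaps overlapped by a peak changed little over gap length. It was 96.6% for gaps of 1 to 50 bp (141 of 146), 95.03% for 101 to 250 bp (153 of 161) and 92.7% for 501 to 1000 bp (38 of 41), with overlapping intervals. A single peak covered both starts in 531 of the 563 pairs (94.3%), 1 start alone in 8 pairs, and neither in 24. This share was lower at long gaps, with 96.6% at 1 to 50 bp and 78.0% (62.4 to 89.4) at 501 to 1000 bp. Separate peaks over the 2 starts did not occur. Neighbouring peaks of the list lie at least 501 bp apart, so starts up to 500 bp apart could not have been given separate peaks. Tail-to-tail gaps held a peak in 1 of 34 (0.07 to 15.3%) at 1 to 50 bp and 22 of 156 (14.1%, 9.05 to 20.6) at 501 to 1000 bp, with overlapping intervals. Both far ends lay under 1 peak in 2.94% and 3.21% of these pairs.

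**Figure D1:**
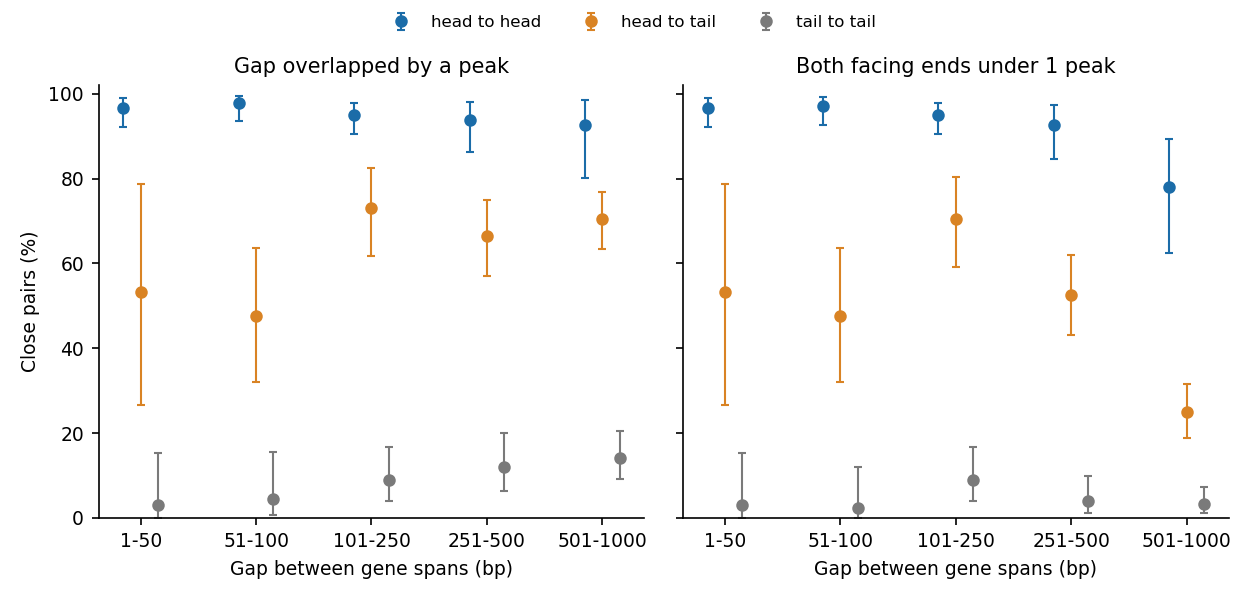
Share of close pairs (y axis, percent) by gap length (x axis, bp) for head-to-head, head-to-tail and tail-to-tail pairs; left, gaps overlapped by a peak, right, both facing ends under 1 peak; points are shares and bars exact binomial 95% intervals. Head-to-head pairs stay above 92% on the left at every gap length, while tail-to-tail pairs do not exceed 14.1%.

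Counts of the gene ends themselves gave the contrast again, from the same peaks. Of the 1126 starts in head-to-head close pairs, 95.03% (93.6 to 96.2) were under a peak, against 58.5% of all 17491 starts with a known strand. Of the 1126 starts, 1062 lay under a peak that also covered the facing start, so this interval is too narrow. A peak at either start can also reach the other, which a start without a near facing start does not have. Starts of genes in no close pair, called lone starts here, stood at 53.7% (52.9 to 54.5, 7804 of 14526). Lone starts can include divergent genes whose spans overlap at their starts, since such pairs have no gap. The 7804 covered ones lay under 7495 peaks, so some shared a peak. Starts lying close behind the far end of a neighbour stood between, at 66.7% (62.1 to 71.0, 296 of 444). Far ends were seldom covered: 5.28% of all far ends were under a peak, 3.66% of those in no close pair and 6.96% (5.34 to 8.88) of those in tail-to-tail pairs.

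In divergent pairs, cover of the starts changed with distance. Among head-to-head neighbours 1001 to 2000 bp apart, 67.0% of starts (57.4 to 75.6, 75 of 112) were covered, and at 2001 to 5000 bp, 5001 to 20000 bp and beyond the shares were 59.2%, 58.4% and 58.2%. The value for gaps up to 1000 bp (95.03%) thus lay outside the intervals of all 4 wider classes, and the 3 widest classes lay close to the 58.5% of all starts. Counted by pair, both starts were covered in 94.3% of pairs up to 1000 bp and in 46.4% (33.0 to 60.3) at 1001 to 2000 bp. One peak over both starts was found in 14 of 56 pairs (25%) at 1001 to 2000 bp, in 7 of 168 (4.17%) at 2001 to 5000 bp and in 0 of 689 at 5001 to 20000 bp. At 1001 to 2000 bp, another 12 pairs had a separate peak at each start.

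Gaps on either side of the 1000 bp limit were as follows. The longest gaps with a peak were 999 bp, at the head-to-head pair Pcgf2-Psmb3 (a Polycomb ring-finger gene and a proteasome subunit gene, peak of 6676 bp) and the tail-to-tail pair Gm30191-Grrp1 (peak of 5377 bp), and 998 bp at Nfkbiz-Nxpe3. The longest without one were Rnase11-Rnase12 (995 bp) and Scly-Espnl (994 bp), both head to tail. Just outside the limit, Ankrd34a-Lix1l (1006 bp) had a peak of 2613 bp, and Pigz-0610012G03Rik (1001 bp), Serpina7-4930513O06Rik (1006 bp), Nup93-Slc12a3 (1008 bp) and Srsf10-Pnrc2 (1008 bp) had none.

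Shared peaks were wider than single gene-end peaks, and the difference was smaller where peaks over starts alone were compared. Their median width was 1796 bp (interval from order statistics 1750 to 1859, quartiles 1414 and 2404, range 11 to 13361 bp). Peaks within 1000 bp of the ends of exactly 1 protein-coding gene, 12773 in number, had a median of 1533 bp (1516 to 1551), a difference of 263 bp or 1.17 times. A wide peak meets a gap more often, so the rule itself favours width. When head-to-head peaks over both starts (531 peaks, median 1830 bp, 1750 to 1914) were set against peaks over lone starts (7480 peaks, median 1729 bp, 1710 to 1753), the difference was 101 bp, and the bounds of both medians allow -3 to 204 bp. Without the broadest 1% of peaks it was 124.5 bp (40 to 235). With gaps of 1 to 100 bp alone the sign turned, with a median of 1678 bp and a difference of -51 bp (-167 to 39). When all 531 peaks were set against only the 4884 peaks over lone starts with no other gene end nearby, the difference was 56 bp (-59 to 165).

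Head-to-head peaks also varied less in width than peaks of lone starts. Their interquartile range was 806 bp (1476 to 2282), against 1089 bp (1303 to 2392) at lone starts. Head-to-tail peaks had a median of 1696 bp, a difference of -32.5 bp from lone starts. Tail-to-tail peaks spread widely around 1369 bp (quartiles 679 and 2640). Peaks over lone far ends that reached no annotated start had a median of 1082 bp (346 peaks). Among head-to-head peaks over both starts the median was 1693 bp (1549 to 1785) at gaps of 1 to 50 bp and 1666 bp at 51 to 100 bp. It was 2226 bp (2083 to 2799) at 501 to 1000 bp. A peak over both starts must be wider than the gap, so part of this rise follows from the choice of peaks. Of shared peaks 4.69% belonged to the broadest 1% of the list (above 4479 bp), as did 3.83% of single gene-end peaks.

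**Figure D2:**
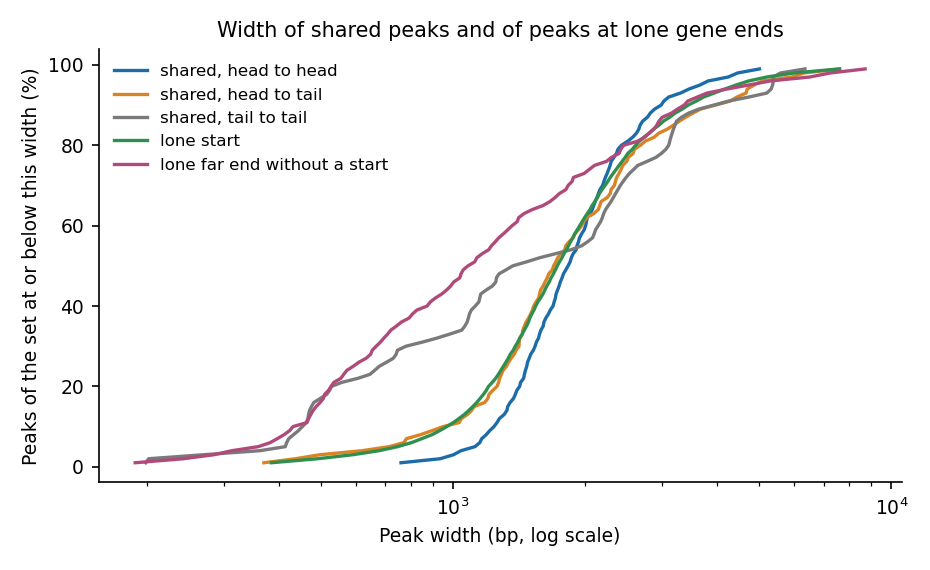
Cumulative share of peaks (y axis, percent) at or below a width (x axis, bp, log scale) for shared peaks by orientation, peaks over lone starts, and peaks over lone far ends that cover no annotated start. The head-to-head line is the steepest, with quartiles of 1473 and 2282 bp for all 539 of its peaks, and the tail-to-tail line starts at smaller widths.

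Seen from each start, the peaks of divergent pairs reached further upstream, which follows in part from how these peaks were chosen. From a lone start the peak reached a median of 1057 bp (1042 to 1077) into the gene and 606 bp (596 to 617) upstream. From a head-to-head start it reached 807.5 bp (776 to 829) into that gene and 952 bp (927 to 976) upstream, across the gap and into the neighbour. Only peaks over both starts were used here. The upstream reach of each start thus holds the gap and the neighbour's reach into its own gene, and on average must exceed the reach into the gene. Head-to-tail starts were like lone ones, with 993 bp into the gene and 623 bp upstream. The middle of a head-to-head peak lay a median of 136.5 bp from the gap centre, in either direction. At lone starts the middle lay 207 bp downstream of the start.

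**Figure D3:**
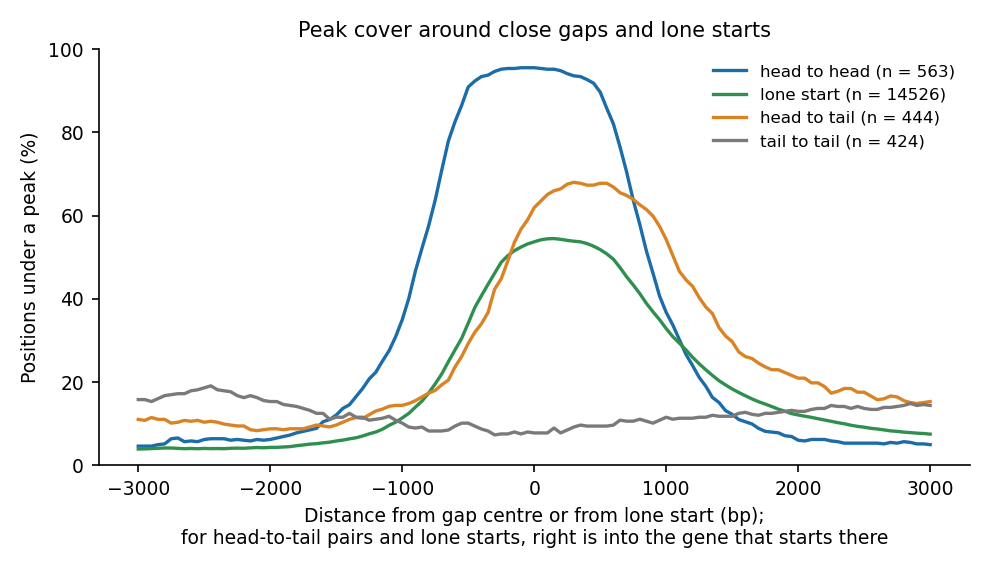
Share of positions under a peak (y axis, percent) by distance in bp from the gap centre, or from the start for lone starts (x axis), drawn every 50 bp; head-to-tail pairs and lone starts are turned so that the gene that starts there lies to the right. Head-to-head cover is 95.6% at the centre and 35.0% and 36.8% at 1000 bp on either side, lone starts lean to the right, and tail-to-tail gaps show no rise, with 7.78% at the centre.

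At head-to-tail gaps the start was covered more often than the far end. Of the 444 gaps, the downstream gene's start was covered in 296, together with the upstream gene's far end in 192 and alone in 104. In 2 pairs the far end alone was covered, and in 146 neither. The upstream gene's far end was thus under a peak in 43.7% of these pairs (194 of 444), against 5.28% of all far ends. Atp5d-Midn, between genes for an ATP synthase subunit and the nuclear protein midnolin, had the widest peak of a known head-to-tail pair, 10550 bp over a gap of 176 bp. Next came H2-Ke6-Slc39a7 (9299 bp) and Jund-Iqcn, with a peak of 8448 bp at the AP-1 factor gene Jund. Mc1r-Tubb3, whose second gene encodes the neuronal tubulin beta-3, had a peak of 7157 bp over a gap of 808 bp.

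The 45 tail-to-tail gaps with a peak were exceptions in their class. Of their peaks 19 covered both far ends, and 34 covered none of the starts in the promoter table. Those at genes of neurons are described here as examples chosen after their values were seen, and other pairs, such as Cd63-Rdh5 (738 bp) and Igfals-Nubp2 (445 bp), hold no such gene. Prr7-Dbn1, where Dbn1 encodes the actin-binding protein drebrin, had a peak of 7113 bp over a gap of 265 bp. Slc17a7-Gfy, where Slc17a7 encodes a vesicular glutamate transporter, had one of 2354 bp over 209 bp. Narrower peaks of 906 bp and 750 bp lay at Engase-Rbfox3 and Prkcsh-Elavl3, whose second genes encode neuronal RNA-binding proteins. Both covered the far end of the first gene only. The narrowest, 196 bp, lay at Gpr137c-Ero1a. Top2b-Rarb, a tail-to-tail pair with a gap of 51 bp at the retinoic acid receptor gene of striatal neurons, had no peak in the gap.

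The 10 pairs with the widest shared peaks had peaks of 7621 to 13361 bp. Setd1b, a histone H3 lysine methyltransferase gene, lay with Rhof under a peak of 13361 bp on chromosome 5, ranked 22 among all peaks by width. A peak of 9299 bp on chromosome 17 covered 2 gaps at once, the one between H2-Ke6 and the zinc transporter gene Slc39a7 and the one between Slc39a7 and the retinoid X receptor gene Rxrb. Kdm6b, which encodes a histone H3 lysine demethylase, and Dnah2 shared a peak of 8245 bp. Foxj1, a ciliogenesis factor gene, and Rnf157 shared one of 8304 bp. The others in this group were Atp5d-Midn and Jund-Iqcn, Stac3-Ndufa4l2 (9384 bp), Cracr2b-Cd151 (8258 bp) and Cyb5d1-Naa38 (7621 bp), whose peak also covered the gap between Tmem88 and Kdm6b. Strand was known for 4 of these 10 pairs, of which 1, Slc39a7-Rxrb, was head to head.

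At the other extreme, starts separated by a few bases also lay under ordinary peaks. Gak-Tmem175, Snx5-Mgme1, Zfp944-Zfp758 and 1110032A03Rik-Fdxacb1 had gaps of 1 bp, with peaks of 1708, 1475, 912 and 1459 bp. Tsc2-Nthl1, a tumour suppressor gene of growth signalling and a DNA glycosylase gene, had a gap of 3 bp and a peak of 1331 bp. Dbf4-Slc25a40, whose first gene encodes the activator of a replication kinase, had a gap of 4 bp and a peak of 2205 bp. Among the 10 shortest head-to-head gaps, the 912 bp peak and that of Tmem209-Ssmem1 (1221 bp) were below the 10th percentile of head-to-head peaks (1240 bp). The peak of Zcrb1-Pphln1 (2343 bp) was above the upper quartile (2282 bp), and the others lay between these bounds.

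All 8 close pairs from a list of 16 known bidirectional promoters were under a peak that covered both facing ends. Over all head-to-head close pairs the share was 94.3% (531 of 563), so these 8 do not stand apart. Atm-Npat, a kinase gene of the DNA damage response and a coactivator gene of histone transcription, had a gap of 60 bp and a peak of 2059 bp. Toe1-Mutyh (34 bp gap) had a peak of 1422 bp, Sirt3-Psmd13 (84 bp) one of 1383 bp and Brca1-Nbr1 (151 bp) one of 2129 bp. Psmb9-Tap1, genes of antigen processing, had a peak of 1845 bp over 225 bp. Pdcd10-Serpini1, where Serpini1 encodes neuroserpin, had the longest gap of these, 640 bp, under a peak of 2488 bp. Mcm4-Prkdc (43 bp) had one of 1641 bp, although its strands were not in the table.

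The 24 head-to-head gaps without a peak lay at genes of mixed kinds, and those named here were chosen after their values were seen. Mup15-Mup-ps12 and Mup19-Mup-ps16, of the major urinary protein family, and the olfactory receptor pair Olfr181-Olfr183 were among them. So were Cd160-Pdzk1, Mpig6b-Ly6g6c and the transcription factor pair Stat5b-Stat5a, which has a gap of 346 bp. The histone pairs H2bc23-H2ac23, H2ac24-H4bc24 and H2bc1-H2ac1 had none either. Genes expressed in brain or widely were present too. The ribosomal protein gene Rps2 faces Rnf151 across 63 bp, the synaptic vesicle zinc transporter gene Slc30a3 faces Dnajc5g across 48 bp, and the catenin gene Ctnnd1 faces Btbd18 across 94 bp. Ngef-Neu2 (156 bp) and Mlc1-Mov10l1 (197 bp) were further pairs without a peak.

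Gene classes differed in how often their members stood in a close pair. Of all 21770 protein-coding genes 16.6% faced a close neighbour, 10.5% lay under a shared peak and 51.8% had a single gene-end peak. Of genes with a known strand 6.44% were in a head-to-head close pair. The first and last of these are set by the annotation, not by the peaks. Shared and single peaks are counted separately, and 1 gene can have both at its different ends. A gene counts as under a shared peak where a peak overlaps its gap, even if that peak misses the gene's own end. Of the 1201 gaps with a peak, 202 had 1 facing end covered and 8 had neither.

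Respiratory chain and DNA repair genes were among the classes most often under a shared peak. Their layout in the annotation differed too. Of their genes with a known strand, 27.5% and 32.1% were in head-to-head close pairs, against 6.44% of all. For mitochondrial ribosomal proteins and splicing factors this share was 24.6% and 18.6%. Among 103 genes of DNA repair and replication, 42 stood in a close pair and 37 lay under a shared peak, 35.9% (26.7 to 46.0) against 10.5% of all genes. Their single gene-end peaks, at 55.3% of genes, lay close to the 51.8% of all. Xrcc3-Zfyve21 had the widest head-to-head peak of the class (5052 bp), followed by Fkbp3-Fancm (3519 bp) and Efcab11-Tdp1 (2826 bp), whereas the tail-to-tail pair Apex1-Pip4p1 had none. Respiratory chain subunits had 32 of 85 genes under a shared peak (37.6%, 27.4 to 48.8), with Atp5d, Atp5b and Uqcrh at the widest. The peak in the Atp5b-Baz2a gap did not reach the end of Atp5b. Mitochondrial ribosomal proteins had 26 of 78 (33.3%, 23.1 to 44.9), led by Mrps18b-Ppp1r10 with 6080 bp. Spliceosome and splicing factor genes had 26 of 82 (31.7%), among them Hnrnph3-Pbld2 with 4714 bp.

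Other classes of widely expressed genes had shares of 19.3% to 25.5%, and their close-pair shares of 27.7% to 36.2% were also above the 16.6% of all genes. Proteasome subunits had 13 of 51 genes under a shared peak (25.5%, 14.3 to 39.6), aminoacyl-tRNA synthetases 9 of 37 (24.3%, 11.8 to 41.2), and RNA polymerase and Mediator genes 14 of 58 (24.1%, 13.9 to 37.2). Chaperones had 17 of 80 (21.2%, 12.9 to 31.8) and cytosolic ribosomal proteins 16 of 83 (19.3%, 11.4 to 29.4). Among genes in close pairs, the share under a peak was 63.4% over all genes. It was 69.6% for cytosolic ribosomal proteins and 66.7% for RNA polymerase and Mediator genes, but 88.1% for DNA repair and replication and 86.7% for both mitochondrial ribosomal proteins and splicing factors. These shares were not split by orientation, and of all 1126 genes in head-to-head close pairs 1078 lay under a shared peak. Cell cycle genes were an exception, with 4 of 54 (7.41%, 2.06 to 17.9) under a shared peak but 85.2% with a single gene-end peak. Examples with a peak were S100pbp-Yars (2610 bp), Psma7-Ss18l1 (2436 bp), Cct5-Atpsckmt (2595 bp) and Mad1l1-Nudt1 (1858 bp).

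Histone genes had the highest share, 37 of 92 under a shared peak (40.2%, 30.1 to 50.96), and a low share with single gene-end peaks (25%). They also paired with each other: both genes were histones in 23 close pairs, 19 of them with a peak, and 7 of 9 such head-to-head pairs had one. The first share is above the 60.0% of all close pairs, and the second below the 95.7% of all head-to-head pairs. The widest was at H4c1-H3c1, 5149 bp over a gap of 635 bp. Histone genes lie in clusters of near-identical copies, so which copy a peak belongs to is uncertain.

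For regulators of the developing striatum the counts were too small to be told from those of all genes. None of 15 ganglionic eminence progenitor regulators and none of 18 radial glia genes faced a close neighbour, with exact upper limits of 21.8% and 18.5% that both lie above the 16.6% of all genes. Of these genes 10 and 17 had a single gene-end peak. Of 20 striatal projection neuron factors, Tshz1 lay under a shared peak, with Zadh2 (5842 bp), and Rarb faced Top2b with none. Of 18 mature striatal genes 2 did: Rasgrp2, with Pygm under 4661 bp, and Ppp1r1b, which encodes the dopamine signalling protein DARPP-32, with Stard3 under 1904 bp. Pan-neuronal genes had 3 of 21, the pairs with Tubb3, Rbfox3 and Elavl3 described above. The peaks in the gaps at Rbfox3 and Elavl3 covered only the end of the facing gene, Engase or Prkcsh. The interneuron list had Gbx2 (4453 bp) and the cortical list Slc17a7. The intervals of all these shared-peak shares include 10.5%.

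Several further classes had few genes under a shared peak or none. Olfactory and vomeronasal receptors had 1 of 1459 genes under a shared peak (Olfr94, facing Ubd), keratins and keratin-associated proteins 1 of 112 and cytochrome P450 genes 1 of 98. Few genes of these classes faced a close neighbour at all: 7, 5 and 3, or 0.48%, 4.46% and 3.06%, against 16.6% of all genes. Liver genes had no close pair. Nor had clustered protocadherins, which are neuronal adhesion genes and of which 25 of 57 had a gene-end peak. Neither of the 2 microglia genes in a close pair, Tyrobp and Csf1r, had a peak in the gap. Zinc finger genes had 30 of 424 (7.08%, 4.82 to 9.95) and solute carriers 32 of 389 (8.23%, 5.70 to 11.4), and the first of these intervals lies below 10.5%. Hox genes had 2 of 39, which share the peak of 3734 bp between Hoxb8 and Hoxb7.

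**Figure D4:**
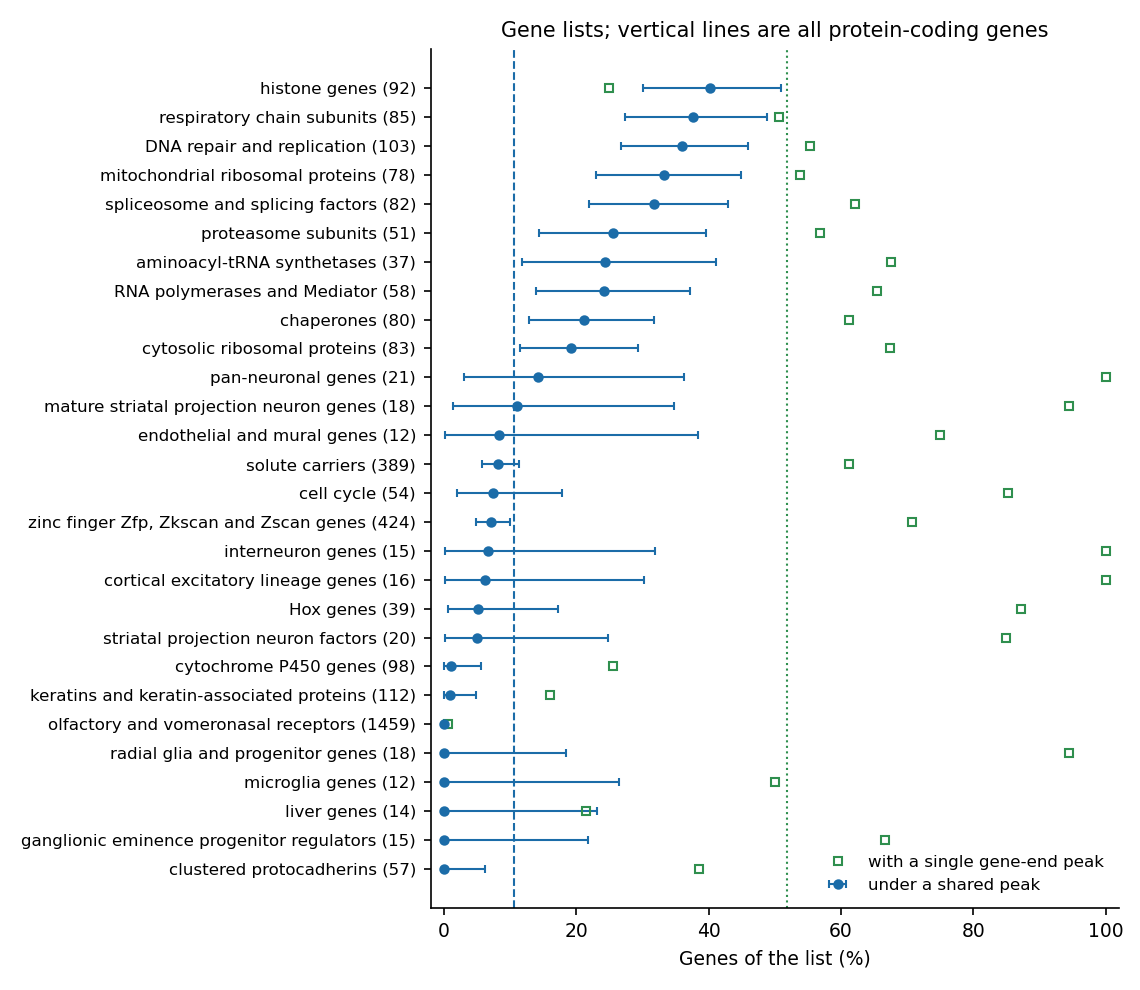
Share of each gene list (x axis, percent) under a shared peak (filled points with exact binomial 95% intervals) and with a single gene-end peak (open squares); list size stands in brackets, and the dashed and dotted lines are all protein-coding genes, 10.5% and 51.8%. Histone, respiratory chain and DNA repair lists lie highest in shared peaks. In single peaks the pan-neuronal, interneuron and cortical lists lie at 100%. Radial glia (94.4%), Hox (87.2%) and cell cycle (85.2%) lists are also far to the right, whereas clustered protocadherins are at 38.6%.

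The promoter sequences of divergent pairs were then compared with those of lone starts, a property that the choice of peaks had not used. The lone starts can themselves include divergent genes with overlapping spans. RefSeq promoter windows of 250 bases before and 50 bases from the start were used where the listed start lay within 50 bp of the end of the gene span, 12719 windows in all. Windows of 825 genes in head-to-head pairs under 1 peak had a median of 24 CpG dinucleotides (24 to 25) and 62.7% G and C. At 5570 lone starts under a peak the medians were 20 CpG (20 to 20) and 61.0%. At 5029 lone starts without a peak they were 2 CpG and 45.0%. Windows of head-to-head pairs without a peak, 32 in number, had a median of 6.5 CpG (2 to 15).

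ETS and NRF1 motifs were more frequent in the promoter windows of divergent pairs. The ETS motif CCGGAAG was present on either strand in 30.8% of the head-to-head windows (27.6 to 34.1), in 15.8% of windows at lone starts under a peak (14.8 to 16.8), in 2.29% of those without a peak, and in 11.7% of all windows. The NRF1 motif GCGCNTGCGC was in 19.9% (17.2 to 22.8) against 10.0% (9.24 to 10.8), with 6.62% in all windows. The YY1 motif AAGATGG was in 12% (9.86 to 14.4) against 6.70% (6.05 to 7.39), with 6.77% in all. The TATA motif TATAAA was in 4.85% (3.49 to 6.54) against 7.59% (6.91 to 8.32), with 15.4% in all.

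Other motifs differed less between divergent and lone accessible promoters. GGGCGG, the SP/KLF motif, was in 70.3% (67.1 to 73.4) against 67.3% (66.1 to 68.5), with 43.4% in all windows. CCAAT, the NF-Y motif, was in 45.8% (42.4 to 49.3) against 40.0% (38.7 to 41.3), with 40.6% in all. The cyclic AMP response element TGACGTCA was in 4.24% against 3.59%, with 2.44% in all. Facing windows overlap where the gap is short, so each site can be counted for both genes. With 1 window per pair, that of the gene on the left, the ETS share was 30.4% and the NRF1 share 20.3% (404 windows). This does not make the windows alike. The median head-to-head gap was 101 bp, so many of these windows run past the neighbour's start into its gene. In the 340 gaps of up to 250 bp, which are shorter than the windows, YY1 was in 1.18%.

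Windows were also compared at like CpG content, a comparison added after the counts were seen. Among windows with 20 to 29 CpG the ETS share was 36.0% (30.9 to 41.4) in 336 head-to-head windows and 20.2% (18.4 to 22.2) in 1773 lone ones. The NRF1 shares there were 19.05% (15.0 to 23.7) and 12.3% (10.8 to 13.9), and the SP/KLF shares 73.2% and 77.6%. At 10 to 19 CpG the ETS shares were closer, 21.1% (15.8 to 27.2) and 16.0% (14.4 to 17.8). The TATA shares went the other way at 0 to 9 CpG, with 35.7% (18.6 to 55.9) of 28 head-to-head windows against 13.6% (11.3 to 16.2) of lone ones. With more CpG they had overlapping intervals, 7.04% against 9.55% at 10 to 19, 2.98% against 5.81% at 20 to 29 and 2.02% against 3.09% from 30 upwards. A match is a run of letters and not evidence of a bound factor.

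**Figure D5:**
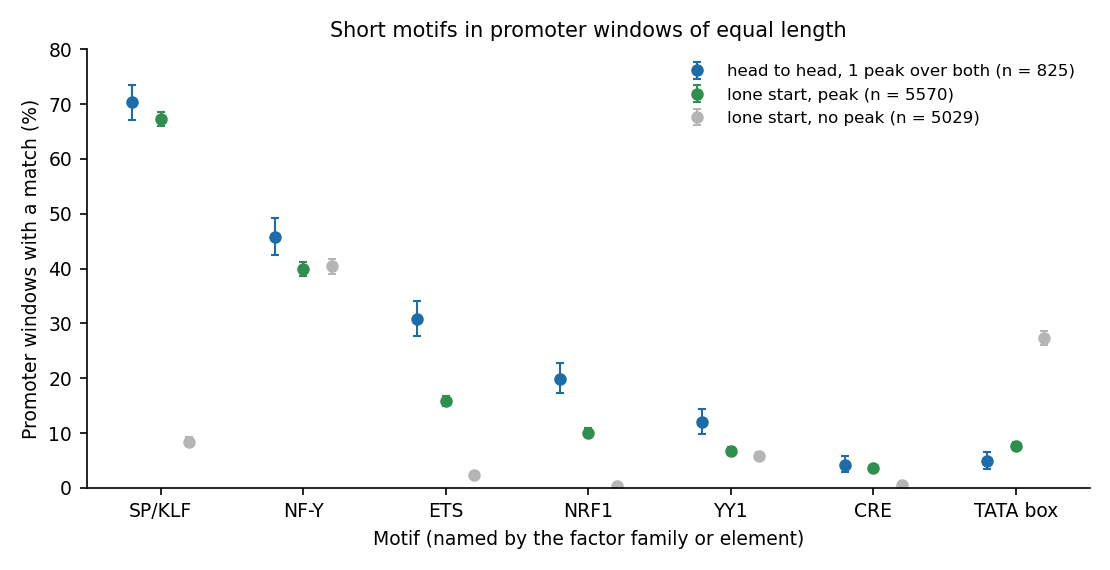
Share of promoter windows of 300 bases (y axis, percent) with a match to each motif (x axis, named by factor family or element) for head-to-head pairs with 1 peak over both starts, lone starts under a peak and lone starts without one; bars are exact binomial 95% intervals. ETS stands at 30.8% against 15.8% and NRF1 at 19.9% against 10.0%, whereas SP/KLF is at 70.3% and 67.3%.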

How the data were processed

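The submitters' processing notes name Signac, Cell Ranger ATAC (version 1.2.0) and the build mm10, with no role for any of them. The peak caller, its thresholds and any pooling of the 2 libraries are not given in the sources used here. The deposited file holds positions alone. Starts were counted from 0, and peaks are printed as deposited. Genes came from a RefSeq table of GRCm38.p6 (49997 entries). Entries without a position or on scaffolds were left out, leaving 49591. Strands and sequences came from the RefSeq promoter table, which also holds alternative starts. Where they overlapped, facing windows agreed base for base in 313 of 313 pairs. Shares have exact Clopper-Pearson 95% intervals and medians order-statistic intervals, with scipy 1.17.1 under Python 3.11.15. No test was made, since 1 peak list gives no replicates. The pair finder was tested on simulated data.

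The rule for named pairs took the 10 widest shared peaks, the 10 shortest head-to-head gaps with a peak, up to 3 pairs with and 2 without a peak per gene class, 16 known bidirectional promoters, and the pairs nearest the limit. All head-to-head gaps without a peak and tail-to-tail gaps with one were added later, and those named were chosen after their values were seen. Members and gene lists were chosen with earlier results of these data known. Other gap limits, overlaps, peak sets and gene sets were tried as alternatives. One of the known bidirectional promoters is not reported here.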

Additional observations from a re-analysis of the deposited data

How the results depend on the processing

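The share of close gaps with a peak (60.0%) was 64.4% with gaps up to 500 bp, 56.57% with gaps up to 2000 bp, 49.55% where the peak had to cover the whole gap, 57.05% without the broadest 1% of peaks, and 13.7% where the peak's midpoint had to lie in the gap. By orientation, the midpoint rule gave 25.4% head to head, 12.2% head to tail and 3.07% tail to tail, and the whole-gap rule 43.2% head to tail and 4.48% tail to tail. The order of the 3 orientations was the same under every alternative run. The width difference between shared and single gene-end peaks (263 bp) was 374 bp under the whole-gap rule and 450 bp with a window of 2500 bp. The difference between head-to-head and lone start peaks (101 bp) turned to -51 bp with gaps of 1 to 100 bp. The other 35 values stayed within the interval of the main value. Gaps covered by another gene, the orientation shares without non-coding, Gm or Rik genes, and all alternatives to the head-to-head width were added once the data had been examined. Without read counts, how depth limits the calling of a peak could not be examined.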

Other observations

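Of the 16 known bidirectional promoters listed, 7 fell outside the definition of a close pair because the annotated spans overlap at their facing ends, and each of them lay under 1 peak over both ends. Among those described here, the overlap was 4 bp at the histidyl-tRNA synthetase genes Hars and Hars2 (peak of 1486 bp), 85 bp at the basement membrane collagen genes Col4a1 and Col4a2 (2943 bp), 96 bp at the mitochondrial chaperone genes Hspd1 and Hspe1 (2140 bp), 239 bp at Surf1 and Surf2 (1818 bp), 277 bp at the purine synthesis genes Ppat and Paics (1812 bp) and 585 bp at Tk1 and Afmid (2752 bp). The remaining pair, Acadvl and Dlg4, lay 1774 bp apart. A peak of 958 bp covered the end of Acadvl, a fatty acid oxidation gene, and none covered the facing end of Dlg4, which encodes the postsynaptic scaffold PSD-95.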
